A study of Mus musculus with 6 samples.

Results

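Cathepsins are the proteases of lysosomes, and in natural killer (NK) cells the same acidic compartment also forms the cytotoxic granules. Cathepsin C, a dipeptidyl peptidase, removes the N-terminal dipeptide that keeps granzymes inactive, and cystatin F, encoded by Cst7, is an inhibitor of cysteine cathepsins that is delivered to the same compartment and is known to block cathepsin C. Cathepsin W is a cysteine cathepsin found mainly in NK cells and cytotoxic T cells, and its substrates are not established.

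The genes described here are 9 cathepsin genes (Ctsa, Ctsb, Ctsc, Ctsd, Ctsh, Ctsl, Ctss, Ctsw and Ctsz) and Cst7, taken by name, by a rule that uses no measured value. Earlier results of these data were known when the genes were chosen. All 10 were found, each under a single Ensembl ID, among 56953 genes in the deposited tables. They lie on chromosomes 2 (Ctsa, Ctsz and Cst7), 3 (Ctss), 7 (Ctsc and Ctsd), 9 (Ctsh), 13 (Ctsl), 14 (Ctsb) and 19 (Ctsw). Messenger RNA was sequenced from primary NK cells of the spleen of wild-type C57BL/6 mice after 7 days in culture, at 1% oxygen (hypoxia) or at 20% oxygen (normoxia), with 3 libraries in each group. All cultures held 5% CO2 and 1700 U/ml of recombinant human interleukin-2, so every value below is from cells activated by this cytokine, and uncultured cells were not analysed here. The labels call the libraries biological replicates without naming mice, pools or cultures, so the spread behind each p-value is that of these libraries and may be technical.

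Totals ran from 55104810 to 55794698 estimated counts per library. Levels are given as CPM, counts scaled to a common library size, with TMM factors that allow for the makeup of each library, and errors are the SD over n = 3 libraries. Each log2 fold change divides hypoxia by normoxia, has a standard error (SE) and comes from edgeR's quasi-likelihood test over 15591 genes with Benjamini-Hochberg adjustment, all 10 among them, and a gene was called at an adjusted p under 0.05. The replicate 1 libraries of both groups stood apart from the other 4 on the second principal component, which held 22% of the variance (23.2 in hypoxia 1 and 34.9 in normoxia 1, against -20.2 to -11.4 in the other 4). All 8 NK cell markers examined were tested, 0 were called higher and 2 lower (Eomes and Klre1). Over all tested genes 11.2% were called higher and 9.72% lower. The summed level of the 8 markers was 3625 to 4091 CPM in hypoxia and 4192 to 4831 CPM in normoxia, led by Prf1. In these bulk libraries fewer cells of a type and less RNA per cell cannot be told apart.

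Ctsw, Ctsc and Ctsl mRNA rose in the cultures kept at 1% oxygen, and none of the 10 genes was called lower. The increases were modest: 1.51-fold for Ctsw, 1.23-fold for Ctsc and 1.53-fold for Ctsl. In the same fit 11.2% of all tested genes were called higher and 9.72% lower, so 20.9% were called in either direction. The median log2 fold change of the 10 genes was 0.29, against -0.01 over all tested genes. For 5 of the 10 genes (Ctsa, Ctsb, Ctsc, Ctsl and Ctsw) all 3 hypoxia libraries lay above all 3 normoxia libraries, where the groups of 38.3% of all tested genes did not overlap in one direction or the other.

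Libraries of the same replicate number deviated together across genes, and once the fit held that number as a term (the replicate block), 8 of the 10 genes were called higher and 0 lower. The 8 were Ctsw, Ctsc, Ctsl, Ctsa, Ctsb, Ctsd, Ctsz and Cst7. The block also raised the calls over all tested genes, to 19.2% higher and 20% lower. Within the 3 pairs of the same number, these 8 genes were higher in the hypoxia library each time, which 31% of all tested genes were.

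**Figure D1:**
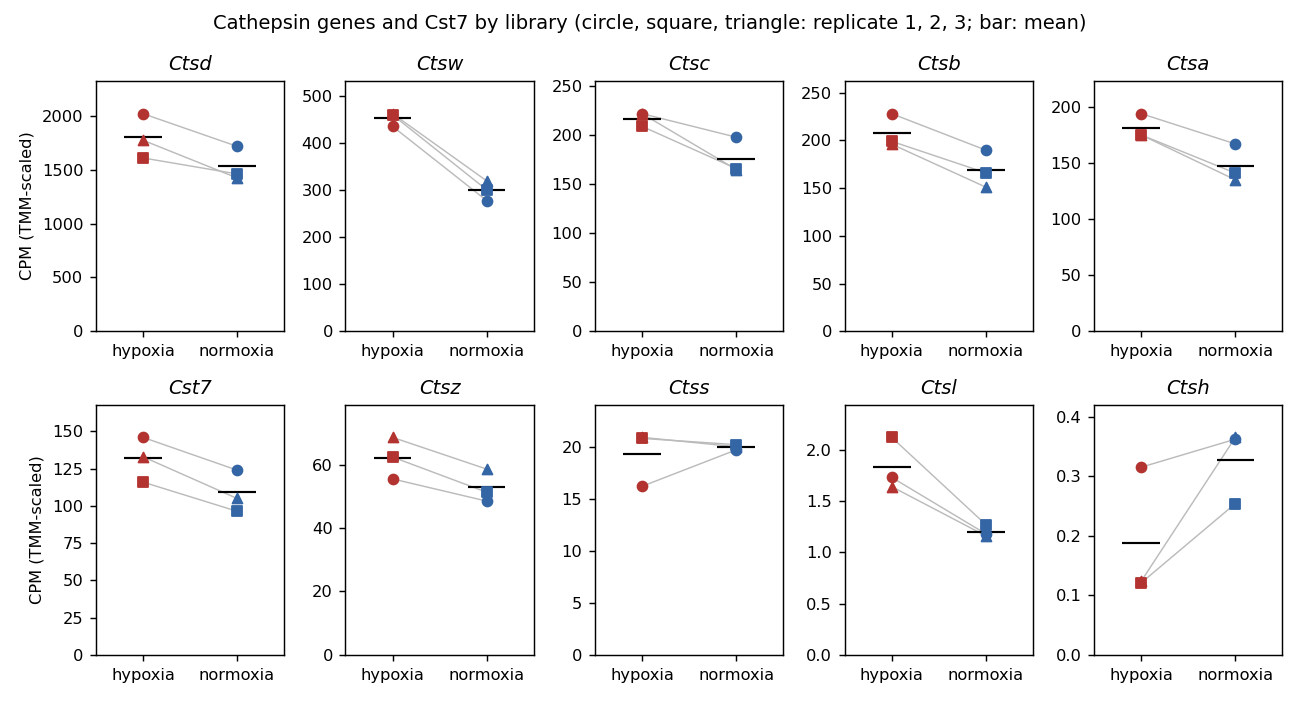
CPM (TMM-scaled, linear axes from 0) of the 10 genes in each of the 3 hypoxia libraries (left, red) and 3 normoxia libraries (right, blue). Circles, squares and triangles are replicates 1, 2 and 3, grey lines join the same number, and bars are group means. For Ctsw all hypoxia libraries (436 to 463 CPM) lie above all normoxia libraries (278 to 320 CPM), while for Ctss the groups overlap.

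The genes Ctsw, Ctsc and Cst7 were taken first. Ctsw (ENSMUSG00000024910) stood at 436, 460.5 and 463 CPM in hypoxia replicates 1, 2 and 3, against 278, 301 and 320 CPM in normoxia replicates 1, 2 and 3. The groups were separated by more than the spread of either. Its log2 fold change was 0.60 (SE 0.08, edgeR adjusted p = 0.000786), and 10.4% of all tested genes had a larger one. The call held in all 15 alternative settings, with log2 fold changes of 0.54 to 0.68.

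Ctsc (ENSMUSG00000030560), the gene of the enzyme that activates granzymes, stood at 222, 209 and 222 CPM in hypoxia and at 198, 166 and 165 CPM in normoxia. Every hypoxia library was above every normoxia library, and normoxia replicate 1 came nearest to the hypoxia values. The log2 fold change was 0.30 (SE 0.09, edgeR adjusted p = 0.0372). The adjusted p was 0.00149 with the replicate block, and the call was lost when any library other than normoxia replicate 1 was left out (adjusted p of 0.0675 to 0.141, log2 fold changes of 0.25 to 0.34).

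Cst7 (ENSMUSG00000068129), the gene of the inhibitor cystatin F, stood at 146, 116 and 133 CPM in hypoxia and at 124, 96.4 and 105 CPM in normoxia. The groups overlapped, since normoxia replicate 1 lay above hypoxia replicate 2. The log2 fold change of 0.28 (SE 0.11) was not called (edgeR adjusted p = 0.108), and it was with the replicate block (adjusted p = 0.000697). It was also called without normoxia replicate 1 (adjusted p = 0.0225) and without both replicate 1 libraries (adjusted p = 0.0348).

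The ratio of inhibitor to enzyme mRNA was compared within each library. Cst7 CPM over Ctsc CPM was 0.661, 0.556 and 0.601 in hypoxia, against 0.626, 0.580 and 0.639 in normoxia. Every normoxia ratio lay within the range of the hypoxia ratios. The mean log2 ratio was -0.73 ± 0.12 in hypoxia and -0.70 ± 0.07 in normoxia (SD, n = 3 each), a difference of -0.02 that was smaller than either SD (two-sided exact permutation test, p = 0.8, where 3 against 3 allows no p below 0.1). CPM are not corrected for transcript length, so the ratio compares libraries and not the amounts of the transcripts of these genes.

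The promoter sequences of this enzyme and inhibitor are shown because their mRNAs stood in a ratio of 0.556 to 0.661 in all 6 libraries. Windows of 250 bases before an annotated start were taken from RefSeq on build GRCm38.p6. The authors' files use GRCm39 and give no coordinates, so the positions belong to the RefSeq table alone. Capitals mark ACGTG or GCGTG, the core that hypoxia-inducible factors bind, read on both strands. A match is a description of the letters and no site of binding.

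Ctsc, chr7:88277835-88278084, plus strand: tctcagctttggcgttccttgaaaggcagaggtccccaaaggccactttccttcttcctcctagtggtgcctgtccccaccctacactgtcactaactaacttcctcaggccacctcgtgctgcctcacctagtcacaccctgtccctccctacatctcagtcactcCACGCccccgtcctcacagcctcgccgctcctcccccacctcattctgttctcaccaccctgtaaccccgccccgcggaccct
Cst7, chr2:150570165-150570414, plus strand: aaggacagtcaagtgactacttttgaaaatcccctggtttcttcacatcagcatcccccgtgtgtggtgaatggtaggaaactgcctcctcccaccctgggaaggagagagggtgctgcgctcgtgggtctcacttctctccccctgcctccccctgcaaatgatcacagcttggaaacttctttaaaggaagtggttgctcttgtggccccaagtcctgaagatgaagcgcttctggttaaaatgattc

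The Ctsc window held 1 such core, on the opposite strand, with its first printed base at -83 from the start site. The Cst7 window held 0. RefSeq windows were found for 7 of the 10 genes (8 windows, 2 of them for Ctsa), without Ctsb, Ctsh and Ctsw. Of these 8 windows 5 held the core, against 54.2% of 13392 windows of tested genes and 38.6% of all 32851 windows. Apart from the Ctsc window, those 5 overlap annotated exons, of the same gene or, in 1 Ctsa window, of Neurl2.

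The general lysosomal proteases had log2 fold changes of 0.23 to 0.30 and were not called in the fit without the replicate block. Ctsd (ENSMUSG00000007891), the gene of the aspartic protease cathepsin D, was the most abundant member at 2025, 1613 and 1778 CPM in hypoxia, against 1721, 1464 and 1427 CPM in normoxia. The groups overlapped, and the log2 fold change of 0.23 (SE 0.11, 95% interval -0.01 to 0.47) was not called (edgeR adjusted p = 0.164), but was with the replicate block (adjusted p = 0.00574).

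Ctsb (ENSMUSG00000021939), whose product cathepsin B cleaves peptides as both an endopeptidase and a carboxydipeptidase, stood at 228, 199 and 196 CPM in hypoxia and 189.8, 166 and 151 CPM in normoxia. The groups did not overlap. Its log2 fold change was 0.30 with SE 0.10 (edgeR adjusted p = 0.0636, or 0.000649 under the replicate block).

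Ctsa (ENSMUSG00000017760) encodes a serine carboxypeptidase that also protects lysosomal beta-galactosidase and neuraminidase. It stood at 194, 175 and 175 CPM in hypoxia, against 167, 141 and 135 CPM in normoxia, without overlap. Its log2 fold change was 0.30 (SE 0.10) and its edgeR adjusted p of 0.0502 lay at the threshold. It was 0.000666 under the replicate block, and the gene passed in 9 of 15 alternative settings.

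Ctsz (ENSMUSG00000016256), the gene of a carboxypeptidase, stood at 55.5, 62.4 and 68.6 CPM in hypoxia and at 48.5, 51.3 and 58.6 CPM in normoxia. The groups overlapped, with normoxia replicate 3 above hypoxia replicate 1. The log2 fold change of 0.24 (SE 0.10) was not called (edgeR adjusted p = 0.126), but was with the replicate block (adjusted p = 0.00239).

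The endopeptidases Ctss and Ctsl and the aminopeptidase Ctsh were the scarcest members. Ctss (ENSMUSG00000038642), whose product degrades the invariant chain of MHC class II in antigen-presenting cells, stood at 16.2, 20.8 and 20.9 CPM in hypoxia and at 19.7, 20.2 and 20.0 CPM in normoxia. Hypoxia replicate 1 was the lowest library, and the other 5 lay within 19.7 to 20.9 CPM. The log2 fold change was -0.05 (SE 0.10, 95% interval -0.28 to 0.18, edgeR adjusted p = 0.788).

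Ctsl (ENSMUSG00000021477), the gene of the endopeptidase cathepsin L, rose at a low level. It stood at 1.73, 2.12 and 1.64 CPM in hypoxia, from 92.0 to 122.6 counts per library, against 1.18, 1.27 and 1.16 CPM in normoxia, from 62 to 70 counts. The groups did not overlap. Its log2 fold change reached 0.61, with SE 0.18 (edgeR adjusted p = 0.0381, or 0.0135 under the replicate block). The call was lost when any library other than hypoxia replicate 3 was left out (adjusted p of 0.0628 to 0.151), without both replicate 1 libraries (0.0769) and with no filter on low counts (0.0555).

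Ctsh (ENSMUSG00000032359), the gene of an aminopeptidase, was close to the limit of detection. It held 18, 7 and 7 counts in hypoxia (0.315, 0.121 and 0.124 CPM), against 19, 14.1 and 20 counts in normoxia (0.362, 0.254 and 0.365 CPM). It passed the filter on low counts through its normoxia libraries. Hypoxia replicate 1 lay within the normoxia range and the other 2 hypoxia libraries below it. The log2 fold change of -0.80 had an SE of 0.42 and was not called (edgeR adjusted p = 0.219, or 0.10 under the replicate block).

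**Figure D2:**
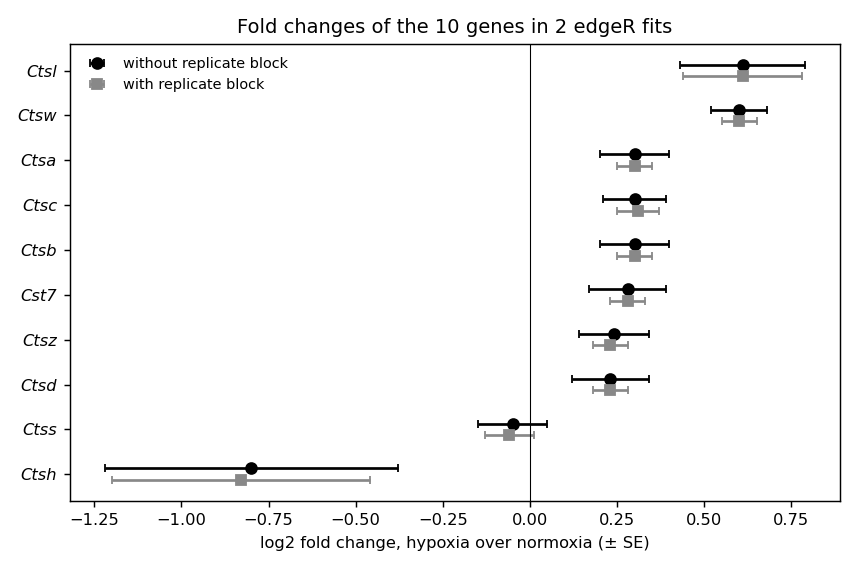
Log2 fold change, hypoxia over normoxia, of each of the 10 genes (points) with its SE (bars), without the replicate block (black circles) and with it (grey squares). Ctsl and Ctsw lie near 0.60, 6 genes lie between 0.23 and 0.31 with narrower bars under the block, Ctss lies near 0 and Ctsh below it with the widest bars.

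Members differed in how they varied between libraries of the same group. Ctsb, Ctsd and Cst7 were highest in replicate 1 in both groups, as was Ctsa. Ctsc was highest in normoxia replicate 1, and in hypoxia replicates 1 and 3 were level. For Cst7 the deviation of replicate 1 from its group mean was 0.16 in hypoxia and 0.20 in normoxia on the log2 scale. Ctsz and Ctsw were lowest in replicate 1 in both groups, with deviations of -0.16 and -0.05 in hypoxia and of -0.12 and -0.11 in normoxia. Ctss was also lowest in replicate 1 in both groups (-0.24 in hypoxia and -0.02 in normoxia). Ctsl was highest in replicate 2 in both groups, and Ctsh was highest in replicate 1 in hypoxia and in replicate 3 in normoxia. On the log2 scale the differences between same-numbered libraries (replicates 1, 2 and 3) were 0.24, 0.27 and 0.34 for Cst7 and 0.16, 0.33 and 0.43 for Ctsc. They were 0.65, 0.61 and 0.53 for Ctsw, and 0.19, 0.28 and 0.23 for Ctsz. Those of Ctsc varied the most of these 4. Ctss was the one member of the 10 whose pairs differed in sign (-0.28, 0.04 and 0.06).

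Levels were compared between genes after division by transcript length (the median over annotated transcripts). Ctsd had the highest level per length, 939 ± 108 CPM per kb in hypoxia and 800 ± 83.4 CPM per kb in normoxia. Ctsw came next at 380.3 ± 12.3 CPM per kb in hypoxia and 252 ± 17.8 CPM per kb in normoxia, then Ctsa, Ctsc, Ctsb and Cst7, with Ctsz, Ctss, Ctsl and Ctsh following. The order was the same in both groups. In hypoxia the ranges of Ctsa (263 to 293 CPM per kb) and Ctsc (251 to 267 CPM per kb) overlapped, so these neighbours did not differ beyond their spread, and no other neighbours overlapped there. In normoxia the range of Ctsa (203 to 251 CPM per kb) overlapped those of Ctsw (233 to 269 CPM per kb) and Ctsc (199 to 238 CPM per kb). The ranges of Ctsb (119 to 149.5 CPM per kb) and Cst7 (97.8 to 126 CPM per kb) also overlapped in normoxia. These neighbours did not differ there beyond their spread. With the longest transcript in place of the median, Cst7 moved to rank 3 and Ctsa to rank 5 in both groups, and Ctsb to rank 6 in hypoxia and rank 7 in normoxia, so the order among these and Ctsc rests on the transcript assumed.

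**Figure D3:**
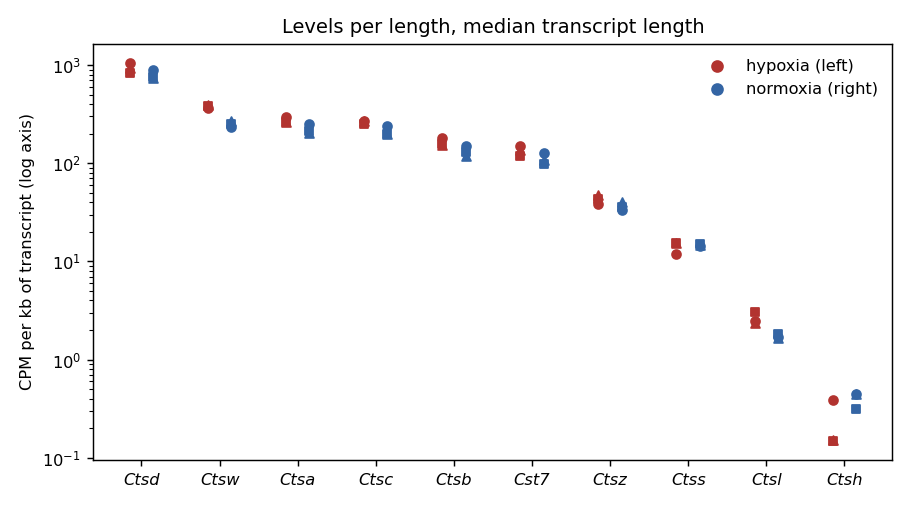
CPM per kb of transcript (log axis) of the 10 genes, ordered by their hypoxia mean, with 3 hypoxia libraries (left, red) and 3 normoxia libraries (right, blue) per gene, and marker shapes for replicates 1 (circle), 2 (square) and 3 (triangle). Levels run from 742 to 1054 CPM per kb for Ctsd to under 0.5 CPM per kb for Ctsh.

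Summed over the 9 cathepsin genes, the level was 2212, 1960 and 2064 CPM per kb in hypoxia, against 1818, 1610.1 and 1589.5 CPM per kb in normoxia. Hypoxia libraries were above normoxia libraries throughout. Ctsd made up 45.1% ± 2.41 of the sum in hypoxia and 47.8% ± 1.34 in normoxia, and Ctsw made up 18.4% ± 1.63 in hypoxia and 15.1% ± 2.09 in normoxia. The ranges of the Ctsw share overlapped (16.6% to 19.7% in hypoxia, 12.8% to 16.9% in normoxia), and no test was made of these shares. Both the sum and the shares rest on the transcript assumed. With the longest transcript, an alternative chosen after seeing the data, the sum averaged 1357 CPM per kb in hypoxia and 1097 CPM per kb in normoxia. The Ctsd share was then 62.4% in hypoxia and 65.8% in normoxia, and the Ctsw share 21.4% in hypoxia and 17.6% in normoxia.

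Stretches around CACGTG, the core of the element through which the factor TFEB is known to act on lysosomal genes, are shown for the 3 genes whose windows held it. Capitals mark CACGTG, which reads the same on both strands. It contains the ACGTG core above, so each match was counted under both searches. The Ctsl window held that core only within CACGTG, and is among the windows counted above as holding it. Stretches are 30 bases from RefSeq, build GRCm38.p6. The 3 windows that held CACGTG all overlap annotated exons of their own gene. The Ctsa match and the second Ctsd match lie within such exons. The Ctsl match lies partly within one, and the first Ctsd match lies outside them. Whether these windows act as promoters was not tested.

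Ctsd first match, chr7:142388048-142388077, minus strand: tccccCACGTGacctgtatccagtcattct
Ctsd second match, chr7:142387908-142387937, minus strand: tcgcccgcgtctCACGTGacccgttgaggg
Ctsa, chr2:164833743-164833772, plus strand: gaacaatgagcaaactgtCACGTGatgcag
Ctsl, chr13:64370739-64370768, minus strand: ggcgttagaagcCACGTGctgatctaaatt

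Windows of 3 of the 7 genes held CACGTG (3 of 8 windows, 37.5%), and those of Ctsc, Cst7, Ctss and Ctsz held none. Of the 13392 windows of tested genes 8.04% held it. The share was 18.9% of 37 windows of the soluble lysosomal proteins listed below. It was 14.7% of 34 windows of the membrane and pump genes listed below. The longer TCACGTGA stood in Ctsa and at the Ctsd match nearer the start site (first base of CACGTG at -12 and -98), against 1.45% of windows of tested genes. These windows number 8 in all, so the shares describe the letters shown and no more.

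Other genes of the lysosome and the granule were taken as lists, whose counts stand against 11.2% higher and 9.72% lower over all tested genes (19.2% and 20% with the replicate block). Of 5 further cathepsin genes, 4 were tested, 2 rose and 1 fell (median log2 fold change 0.41, against -0.01 over all tested genes). Ctsf, the gene of another cysteine cathepsin, stood at 1.05, 1.45 and 1.40 CPM in hypoxia and at 0.324, 0.181 and 0.256 CPM in normoxia (log2 fold change 2.36, SE 0.27, edgeR adjusted p = 0.00036). Ctsg, the gene of a serine protease known from granules of myeloid cells, fell to 4.11, 2.99 and 4.00 CPM in hypoxia, against 15.6, 8.83 and 10.3 CPM in normoxia (log2 fold change -1.64, SE 0.21, edgeR adjusted p = 0.000662). Ctso also rose. Of 9 other cystatins and stefins 7 were in the files and 3 were tested, and 0 rose and 0 fell (median 0.27). Cst3, the gene of the secreted cystatin C, averaged 75.3 ± 3.19 CPM in hypoxia, against 62.6 ± 7.70 CPM in normoxia (edgeR adjusted p = 0.0659). With the replicate block 1 of the 3 was called higher. Cstb, the gene of the cytosolic inhibitor stefin B, averaged 44.4 ± 3.81 CPM in hypoxia, against 47.5 ± 1.54 CPM in normoxia (edgeR adjusted p = 0.438).

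Among 40 genes of soluble lysosomal proteins, mostly hydrolases and called that here for short, 11 rose and 3 fell. Their median was 0.14 (log2 fold change). Gm2a, which encodes the activator that presents ganglioside GM2 to hexosaminidase, stood at 107, 103 and 105 CPM in hypoxia, against 46.1, 36.6 and 33.0 CPM in normoxia (log2 fold change 1.44, SE 0.11, edgeR adjusted p = 3.66e-05). Galc, the gene of galactosylceramidase, fell to 4.96 ± 0.779 CPM in hypoxia, against 9.76 ± 0.441 CPM in normoxia (edgeR adjusted p = 0.000668). Also higher were Galns, Sgsh, Man2b1, Smpd1, Ppt2, Plbd2, Aga, Neu1, Manba and Ids, and also lower were Scpep1 and Gla. With the replicate block 19 rose and 8 fell, and 6 rose without normoxia replicate 2 and 7 without hypoxia replicate 1.

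Of 18 genes of the machinery that processes and sorts lysosomal enzymes, 2 rose and 1 fell (median 0.00). Psap, the gene of the sphingolipid activator precursor prosaposin, averaged 385 ± 30 CPM in hypoxia, against 284 ± 25.3 CPM in normoxia (log2 fold change 0.44, SE 0.09, edgeR adjusted p = 0.00867). Sort1, which encodes the sorting receptor sortilin, averaged 0.759 ± 0.224 CPM in hypoxia, against 0.135 ± 0.0357 CPM in normoxia (edgeR adjusted p = 0.00111). Sort1 passed the filter on low counts through its hypoxia libraries alone, so only a rise could be called. Gnptg, the gene of a subunit of the enzyme that starts the mannose 6-phosphate tag, fell. With the replicate block 5 rose and 3 fell.

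Of 31 genes of lysosomal membrane proteins, the proton pump and their transcription factors, 3 rose and 1 fell (median 0.06). Cd63, the gene of a tetraspanin of lysosomes and granules, averaged 41.6 ± 4.69 CPM in hypoxia, against 26.7 ± 3.75 CPM in normoxia (edgeR adjusted p = 0.0041). Lamp1, the gene of a major lysosomal membrane glycoprotein, stood at 179.8, 166 and 165 CPM in hypoxia, against 145, 129 and 137 CPM in normoxia (edgeR adjusted p = 0.017). The pump subunit gene Atp6v0a2 also rose, and Tfe3, a transcription factor gene of the TFEB family, fell. Tfeb itself averaged 3.07 ± 0.327 CPM in hypoxia, against 3.24 ± 0.384 CPM in normoxia (edgeR adjusted p = 0.762). With the replicate block 7 rose and 3 fell.

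Of 11 genes of granule proteins, the granzymes and perforin, 2 rose and 1 fell, and their median was 0.00 (log2 fold change). Gzma, the gene of granzyme A, averaged 9924 ± 730.1 CPM in hypoxia, against 5681 ± 723 CPM in normoxia (edgeR adjusted p = 0.000712), and the scarce Gzmk also rose. Gzmf fell to 143 ± 38.2 CPM in hypoxia, against 513 ± 129 CPM in normoxia (edgeR adjusted p = 0.000354), and reads of its near relatives may be shared with it. With the replicate block 4 rose and 2 fell.

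**Figure D4:**
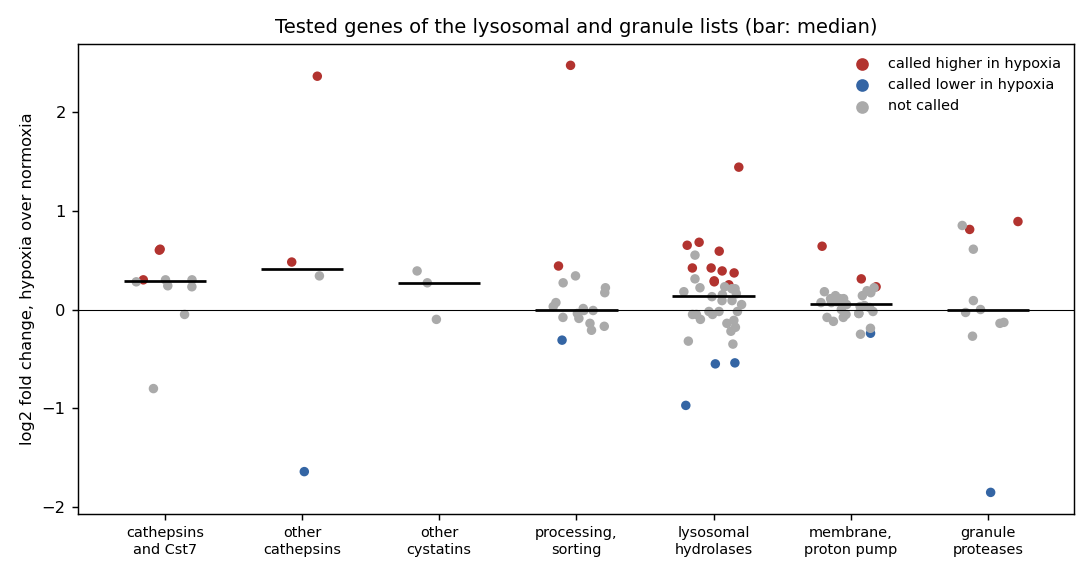
Log2 fold change, hypoxia over normoxia, of the tested genes in each list (points), coloured by the edgeR call (red higher, blue lower, grey not called), with the list median as a bar. The 10 cathepsin and Cst7 genes have a median of 0.29, the 40 genes of the hydrolase list of 0.14 and the 18 processing and sorting genes of 0.00.

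Cathepsins are abundant in myeloid cells, so the levels of other cell types stand beside these results. The counts of markers called, here and for the cell types below, stand against 11.2% higher and 9.72% lower over all tested genes. Of 12 macrophage and monocyte markers 4 were tested, 2 rose and 1 fell, and their summed level was 51.0 to 83.7 CPM in hypoxia and 15.7 to 29.4 CPM in normoxia, led by Cd68. Cd68 stood at 80.3, 56.9 and 48.4 CPM in hypoxia, against 23.3, 14.6 and 11.4 CPM in normoxia (3.77-fold, edgeR adjusted p = 0.000752). Lyz2 was also called higher, at 0.193, 0.381 and 0.356 CPM in hypoxia and at 0 in all 3 normoxia libraries (edgeR adjusted p = 0.00189). Lyz2 passed the filter on low counts through its hypoxia libraries alone, so only a rise could be called. Cd14 fell to 1.82, 1.32 and 1.28 CPM in hypoxia, against 4.59, 3.67 and 3.36 CPM in normoxia (edgeR adjusted p = 0.00102). C1qa and Marco were at 0 in all libraries, Adgre1 averaged 0.00584 CPM in hypoxia and 0.0124 CPM in normoxia, and Csf1r averaged 1.03 CPM in hypoxia and 1.06 CPM in normoxia. Of 12 dendritic cell markers 9 were tested, 3 rose and 5 fell, and their sum was 382 to 421 CPM in hypoxia and 246 to 267 CPM in normoxia, led by Itgax, with Clec9a at 0. Most of that sum was Itgax, which averaged 327 ± 22.1 CPM in hypoxia and 179.7 ± 12.5 CPM in normoxia. Xcr1 and H2-Ab1 also rose, and Clec10a, Bst2, H2-Aa, H2-Eb1 and Zbtb46 fell, so the sum and the calls of the list went different ways. The 6 basophil and mast cell markers, led by Mcpt8, summed to 76.3 to 90.0 CPM in hypoxia and 19.3 to 27.5 CPM in normoxia, with 3 tested, 2 higher and 0 lower. Nearly all of that sum was Mcpt8, which averaged 79.7 CPM in hypoxia and 21.1 CPM in normoxia. Cpa3 was also called higher (1.96 CPM in hypoxia, 0.704 CPM in normoxia), and Hdc was not called (log2 fold change -0.11). Gata2 averaged 0.0876 CPM in hypoxia and 0.0372 CPM in normoxia, and Fcer1a and Ms4a2 did not pass 0.0178 CPM in any library.

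All 7 T cell markers were tested, 3 rose and 0 fell, and their sum was 151 to 192 CPM in hypoxia and 95.7 to 112 CPM in normoxia, led by Cd3g. Of 8 neutrophil markers 2 were tested, S100a8 and S100a9, and both were called higher. Each stood at 0.019, 0 and 0 CPM in normoxia. Both passed the filter on low counts through their hypoxia libraries alone, so only a rise could be called. The 8 markers summed to 0.810 to 2.20 CPM in hypoxia and 0.153 to 0.343 CPM in normoxia, led by S100a9. Of the untested markers, Ly6g averaged 0.029 CPM in hypoxia and 0.118 CPM in normoxia, and Ltf 0.152 CPM in hypoxia and 0.00609 CPM in normoxia. The 6 B cell markers, led by Cd79b, the only member tested and higher, summed to 1.04 to 1.19 CPM in hypoxia and 0.274 to 0.571 CPM in normoxia. The 6 erythroid markers, led by Hba-a1, summed to 0.156 CPM or less. The part of other cell types in the cathepsin values was not tested.

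Several members overlap other genes, and how strand was used in counting is not given in the sources used here. Fdft1, on the strand opposite Ctsb, held 7507 to 9333 counts in hypoxia and 8078 to 10236 counts in normoxia, where Ctsb held 10999 to 13006 counts in hypoxia and 8288 to 9972 counts in normoxia. Pltp, opposite Ctsa, held 2095 to 2602 counts in hypoxia and 1196 to 1304 counts in normoxia. Fibp, opposite Ctsw, held 1012.7 to 1065.4 counts in hypoxia and 1080.6 to 1149.1 counts in normoxia, where Ctsw held 24915 to 26604 counts in hypoxia and 14595 to 17515 counts in normoxia. Neurl2, opposite Ctsa, Nelfcd, opposite Ctsz, and Gm49369, on the same strand as Ctsd, also overlap, as do an antisense gene and a pseudogene at Ctsl with at most 0.7 counts in any library. Without knowledge of strand, reads from the stretches where exons on opposite strands overlap cannot be told apart. Strand does not separate the partners on the same strand. The length of these overlaps was not measured, so the share of reads concerned is not known. Ctsc, Ctss, Ctsh and Cst7 overlap no annotated exon of another gene.

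The genes whose pattern was most like Ctsc and Cst7 were sought among 9495 other tested genes averaging at least 5 CPM. By Pearson's r of log2 CPM over the 6 libraries, Ctsc was most like Nceh1 (0.9969), Spin4 (0.9958) and Gskip (0.9956). Cst7 was most like Fkbp1a (0.9942), Hsd17b7 (0.9935) and Arl4a (0.9917). These are descriptions over 6 libraries that share a group difference, and carry no p.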

How the data were processed

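The authors deposited an estimated count for each Ensembl gene in each library, without normalization, of which 69.5% were whole numbers (tolerance 1e-06). Values the authors deposited as CPM are log2 (-4.80 to 14.02), equal to what edgeR's cpm gives on the log2 scale with prior count 2 (largest difference 5.33e-15). Trim Galore 0.6.4, kallisto 0.4.6, edgeR 3.17 and build GRCm39 are named, per the submitters' processing notes. The sources used here give no settings, annotation release or strand.

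Symbols came from GENCODE M21 (52029 of 56953 IDs), as did transcript lengths. Counts were rounded, filtered with filterByExpr (minimum count 10, minimum total 15; 15591 genes) and scaled by TMM. The quasi-likelihood test of edgeR 4.0.16 set hypoxia against normoxia without covariates. SE was derived as the size of the log2 fold change divided by root F, and 95% intervals use 9.72 degrees of freedom. One count is worth about 0.018 CPM. Alternatives were DESeq2 size factors, library size alone, no filter, a stricter filter (50 counts in 3 libraries), the DESeq2 1.42.0 Wald test, limma-voom (limma 3.58.1), unrounded counts, the replicate block and leaving out libraries, and the longest transcript for levels per length.

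Across genes, hypoxia and normoxia libraries with the same number shared deviations from the group mean (r of 0.47, 0.33 and 0.30). For libraries of different numbers r ran from -0.35 to 0.12. The number was held as a term only in the alternative fit with the replicate block. The main fit left it out, because the labels do not say what a number shares, and so takes no account of such pairing. Pairs of libraries within a group were further apart than counting error (chi-square per gene, on average, 12.4 to 61.4). The genes and lists were chosen with earlier results of these data known. All 10 genes are described. From each list the 2 tested members with the smallest p have values and the other called members are named, as is the most abundant of each marker list. Tfeb and the other single markers named were chosen after their values were seen. These markers were Eomes, Klre1, Lyz2, Cd14, Csf1r, Adgre1, C1qa, Marco, Clec9a, Xcr1, Clec10a, Bst2, H2-Aa, H2-Ab1, H2-Eb1 and Zbtb46. Cpa3, Fcer1a, Ms4a2, Gata2, Hdc, S100a8, Ly6g and Ltf were chosen in the same way.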

Additional observations from a re-analysis of the deposited data

How the results depend on the processing

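Of the 10 genes, Ctsw alone was called in all 15 alternative settings. Members called higher numbered 3, and 7 with library size alone, 5 with the stricter filter, 5 with the DESeq2 Wald test, 8 with the replicate block, 5 without both replicate 1 libraries, and 1 to 6 with single libraries left out (1 without hypoxia 1, hypoxia 2, normoxia 2 or normoxia 3, 2 without hypoxia replicate 3, and 6 without normoxia replicate 1). None was called lower in any of these fits. Over all tested genes 1745 of 15591 were called higher in the main fit. The number was 2384 of 15591 with library size alone, 1612 of 12265 with the stricter filter and 1775 of 15591 with the Wald test. It was 1811 of 15814 without both replicate 1 libraries and 1980 of 16113 without normoxia replicate 1. Ctss reversed to 0.03 with library size alone, 0.06 without hypoxia replicate 1 and 0.05 without both replicate 1 libraries. It ran from -0.11 to 0.06 with single libraries left out, and was called in no setting. The log2 difference in Cst7 over Ctsc ran from -0.09 to 0.04 with single libraries left out (0.04 without hypoxia replicate 2, 0.00 without normoxia replicate 3). Over all tested genes the calls were 2988 higher and 3120 lower with the replicate block and 998 lower with library size alone, which shifted the median of all genes to 0.08 (log2, against -0.01) and that of the 10 genes to 0.37 (against 0.29), and made 70.5% of calls higher, against 53.5%. With single libraries left out they were 1146 to 1980 higher and 804 to 1636 lower.

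For the lists, the replicate block gave 1 cystatin higher, 5 processing and sorting genes higher and 3 lower, 19 hydrolases higher and 8 lower, 7 membrane and pump genes higher and 3 lower, and 4 granule genes higher and 2 lower. Library size alone gave 1 cystatin higher, 0 processing genes lower, and 5 membrane genes higher and 0 lower. The stricter filter gave 1 cystatin and 1 processing gene higher and 0 membrane genes lower. The Wald test gave 2 processing and 2 membrane genes lower and 4 granule genes higher and 2 lower. DESeq2 size factors gave 2 membrane and 2 granule genes lower, limma-voom 2 granule genes lower, and no filter 5 hydrolases lower and 4 granule genes higher. Without both replicate 1 libraries 1 cystatin, 4 processing genes and 5 membrane genes were higher, and 5 hydrolases and 2 membrane genes lower. With single libraries left out the counts ran from 0 to 1 (cystatins higher), 2 to 4 and 0 to 1 (processing, higher and lower), 6 to 16 and 3 to 5 (hydrolases), 1 to 6 and 0 to 1 (membrane), and 1 to 3 and 1 to 2 (granule). The cause of these shifts was not tested. Depth limits Ctsh, at 7 to 20 counts per library.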
